A study of Mus musculus with 1019 samples.

Results

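The genes described here are 10 whose products build, pack or move chromosomes or are made when cells divide: Mki67, Top2a, Birc5, Stmn1, Tubb5, Tuba1b, H2afz, Hmgb2, Cenpa and Smc4. They were chosen by name, as 10 of the 23725 gene rows of a single-cell table of counts of unique molecular identifiers (UMIs, each counted as 1 captured RNA molecule). The question put to them was whether any cell carries several of them at once. All 10 were found as rows.

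The table held 1019 cells captured in droplets with the inDrops method. One library of 375 cells came from spleen, and 2 libraries, numbered 2 and 3 in the labels, of 330 and 314 cells came from epididymal visceral adipose tissue (VAT), the fat pad beside the testis. All cells were from male B6 mice aged 20 months with no other treatment named, and all were sorted as live T cells positive for TCRb, CD4 and CD25, a gate that enriches regulatory T cells (Treg cells). The labels name no animal, so cells of a library were not counted as replicates. With 1 spleen library no test between tissues was possible, and intervals below cover counting error only.

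Spleen was broken up mechanically and VAT was digested with enzymes, so tissue and dissociation cannot be told apart. For the spleen cells the labels disagree: the source field names spleen, whereas the tissue field names spleen together with visceral adipose tissue. The title calls this library replicate 2 and the sample type gives another replicate name. Groups follow the source field.

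A dividing cell first copies its DNA in S phase, with the MCM helicase, PCNA and enzymes that make nucleotides, and then, in G2 phase and mitosis, condenses and separates its chromosomes. Many genes of the second step, such as Mki67, Top2a and Birc5, are nearly silent in resting lymphocytes. Others serve resting cells too: tubulins form the cytoskeleton and H2A.Z marks gene starts at all times. Treg cells of adipose tissue in mice are known to accumulate with age, and part of that build-up has been linked to division in the tissue.

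Promoters of genes used in mitosis are known for repeated CCAAT boxes, bound by the factor NF-Y, and for the cell cycle homology element, searched here by the letters TTTGAA. Both were looked for on both strands in the 300 bases from 250 before to 50 after the RefSeq start (GRCm38.p6). Of the 10 genes, 7 had such a promoter entry. CCAAT occurred in 5 of the 7, against 37.4% of all 32851 promoters, and TTTGAA in 4 of the 7, against 17.9%. Top2a held 6 CCAAT matches, a number reached by 0.0791% of all promoters. Hmgb2 held 4, Mki67 3, Cenpa 2 and Tubb5 2. Birc5 and Tuba1b held neither motif. The stretches below are written 5′ to 3′ on the gene's strand with matches in capitals. They show the crowded boxes of Top2a and Mki67 beside the more widely spaced pair of Tubb5. The Top2a stretch holds only part of that gene's matches. Whether the spacing of boxes goes with the level of a gene was not tested.
Top2a, chr11:99024230-99024349, minus strand: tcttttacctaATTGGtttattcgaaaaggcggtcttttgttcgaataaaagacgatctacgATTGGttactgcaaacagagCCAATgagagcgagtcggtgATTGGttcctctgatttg
Mki67, chr7:135716470-135716569, minus strand: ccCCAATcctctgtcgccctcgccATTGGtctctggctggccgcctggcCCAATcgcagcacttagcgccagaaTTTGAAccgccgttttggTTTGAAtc
Tubb5, chr17:35838382-35838511, minus strand: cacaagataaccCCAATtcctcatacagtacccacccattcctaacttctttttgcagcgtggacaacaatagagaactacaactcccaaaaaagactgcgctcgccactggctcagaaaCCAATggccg
A match describes letters only, and binding was not measured.

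Library totals were 573622 UMIs in spleen, 556099 in VAT library 2 and 548770 in VAT library 3, with median UMIs per cell of 1423, 1565 and 1611. A level is given below as UMIs of a gene per 1000000 UMIs of its library (CPM), and 3 UMIs, the most that a count of 0 allows, equal 5.23, 5.39 and 5.47 CPM. Lists of markers were checked for other cells that the sort could hold. Cd79a of B cells, Adgre1 and C1qa of macrophages, Cd8a, and Adipoq of adipocytes were at 0 in every library. The erythroid list (4 of 5 genes seen in spleen) summed to 202 CPM in spleen against 1.80 and 1.82 in VAT, mostly globin, and the B cell list (4 of 8 seen in spleen) to 152 against 19.8 and 27.3, mostly Cd74. The myeloid list summed to 92.4 CPM for spleen and 214 and 226 for VAT, nearly all of it Cst3. The CD8 and NK list, mostly Cd8b1, summed to 57.5, 64.7 and 65.6 CPM and was seen in 7.73%, 8.48% and 9.87% of cells of spleen, VAT library 2 and VAT library 3. The endothelial list, mostly Pecam1, gave 52.3 CPM in 6.40% of spleen cells against 1.80 and 3.64 CPM in VAT. The adipocyte list, mostly Lpl, gave 20.9, 16.2 and 20.0 CPM, and the stromal list 1.74, 0 and 3.64. Cells with a UMI of Foxp3, the factor that defines Treg cells, made up 34.7% of the spleen cells and 38.8% and 31.2% of the VAT cells. Between libraries, 3 cell barcodes were shared.

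The 3 genes most tied to division were close to absent. Mki67 (chr7:135689784-135716361) encodes the Ki-67 protein that coats mitotic chromosomes; it had 3 UMIs in spleen, 2 in VAT library 2 and 6 in VAT library 3. Each of those UMIs was in a different cell. Top2a (chr11:98992943-99024189), the topoisomerase that untangles replicated DNA, had 4, 0 and 2 UMIs. Birc5 (chr11:117849251-117855743) encodes survivin, a part of the complex that checks chromosome attachment, and had 1, 2 and 4 UMIs in 1, 2 and 2 cells. In CPM all 9 values lay between 0 and 10.9, at or around the floor of 3 counts. A UMI of any of the 3 occurred in 8 of 375 spleen cells (2.13%, 95% exact binomial interval 0.925 to 4.16), in 4 of 330 cells of VAT library 2 (1.21%, 0.331 to 3.07) and in 9 of 314 of VAT library 3 (2.87%, 1.32 to 5.37). The intervals overlap, which is not a test, and at this depth neither a difference between libraries nor its absence can be read from them. Of these cells 5 of 8, 3 of 4 and 6 of 9 lay above the median UMIs of their library.

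Stmn1 (chr4:134468320-134473843), which encodes stathmin, a protein that takes microtubules apart, was rare but clumped. It had 16 UMIs in 6 spleen cells, 16 in 5 cells of VAT library 2 and 13 in 5 cells of VAT library 3, and single cells held up to 5, 6 and 7 UMIs. Its level was 27.9 CPM in spleen (95% exact Poisson interval 15.9 to 45.3). VAT library 2 had 28.8 CPM (16.4 to 46.7) and VAT library 3 had 23.7 (12.6 to 40.5). The intervals overlapped, and few cells carried the gene in each library. They take UMIs as independent and so are too narrow for a clumped gene. These 4 genes had fewer than 50 UMIs over the 3 libraries and were not put to the fold rule below.

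Cenpa (chr5:30666777-30674830) encodes the histone H3 variant of the centromere. Spleen had 62.8 CPM of it (44.0 to 86.9), VAT library 2 had 41.4 (26.2 to 62.1) and VAT library 3 had 52.8 (35.4 to 75.9), from 36, 23 and 29 UMIs in 25, 14 and 19 cells. Hmgb2 (chr8:57511907-57515999), a DNA-bending chromatin protein, reached 103 CPM for spleen (78.3 to 133), with 86.3 for VAT library 2 (63.6 to 114) and 122 for VAT library 3 (94.6 to 155). It was found in 14.1% of spleen cells and in 13.0% and 17.8% of VAT cells, at 1.11, 1.12 and 1.20 UMIs per cell that had it. For both genes the intervals of the 3 libraries overlap.

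The abundant members were also present in cells with no other sign of division. H2afz (chr3:137864487-137866922), which encodes the histone variant H2A.Z, was at 701 CPM in spleen, 818 in VAT library 2 and 558 in VAT library 3. The VAT libraries lay on either side of spleen and differed from each other by a ratio of 0.682 (0.588 to 0.790), library 3 over library 2. So the spread between the 2 VAT libraries was larger than either one's distance from spleen.

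The 2 tubulins lay on opposite sides of spleen. Tubb5 (chr17:35833921-35838306), a beta tubulin, was at 554 CPM in spleen, against 417 and 403 in the VAT libraries, which gave VAT to spleen ratios of 0.753 (0.633 to 0.894) and 0.726 (0.609 to 0.865). Tuba1b (chr15:98931425-98934565), an alpha tubulin, was at 628 CPM in spleen, against 822 and 862 in the VAT libraries, which gave ratios of 1.31 (1.14 to 1.51) and 1.37 (1.19 to 1.58). It was seen in 110 of 375 spleen cells (29.3%), in 165 of 330 cells of VAT library 2 and in 155 of 314 of VAT library 3 (49.4%). With every cell thinned to 800 UMIs the shares were 22.1%, 34.2% and 36.6%, in the same order. Neither tubulin reached a 2-fold difference. Tubulin genes are near copies of each other, and how reads shared by them were counted is not given in the sources used here.

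Smc4 (chr3:69004738-69034623), the ATPase arm of the condensin complexes that compact chromosomes for mitosis, stood apart. It had 383 UMIs in 184 of the 375 spleen cells, 43 in 35 of the 330 cells of VAT library 2 and 43 in 33 of the 314 cells of VAT library 3. Those counts equal 668 CPM (602 to 738), 77.3 (56.0 to 104) and 78.4 (56.7 to 106). The level in spleen was 8.63-fold (6.29 to 12.1) and 8.52-fold (6.21 to 12.0) that of the VAT libraries. Library 3 over library 2 gave a ratio of 1.01 (0.648 to 1.58). At 800 UMIs per cell, 31.7% of spleen cells and 5.45% and 7.32% of VAT cells had a UMI of it.

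**Figure D1:**
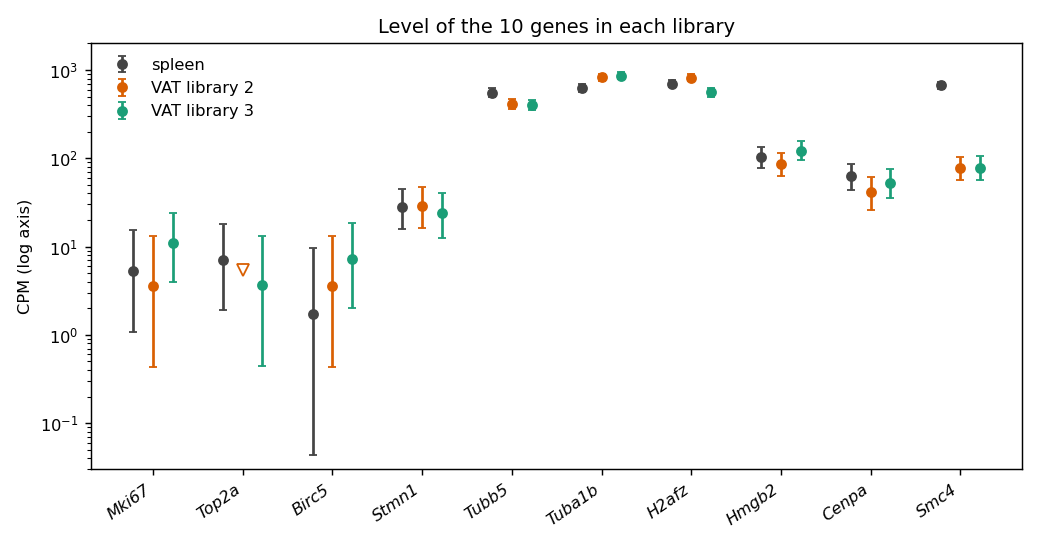
Level of each of the 10 genes in CPM (log axis) for spleen, VAT library 2 and VAT library 3. Points are libraries and bars are 95% exact Poisson intervals; the open triangle marks the limit of 3 counts for Top2a in VAT library 2, where it had no UMI. Only Smc4, at 668 in spleen against 77.3 and 78.4 in VAT, shows a gap wider than 2-fold among the genes with 50 or more UMIs.

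A call was given to genes whose level in each VAT library was 2-fold or more above that of spleen, or 2-fold or more below it, among genes with 50 or more UMIs in all and with 0.5 added to each count. By this rule 10.3% of the 4635 genes were higher and 4.40% were lower. Of the 6 members with 50 or more UMIs, 0 were higher, 1 (Smc4) was lower and 5 were neither. Their median log2 ratio of VAT to spleen was -0.33 in library 2 and -0.29 in library 3, beside 0.04 and -0.02 over all genes. Among the 4635 genes, 36 had a lower mean log2 ratio than Smc4, and among the 496 others with at least as many UMIs only Izumo1r, a folate receptor family gene of T cells, did; it was singled out after its values were seen.

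To ask whether any cell carried several, the tubulins and H2afz were set aside as genes of resting cells, and cells were counted by how many of the other 7 (Mki67, Top2a, Birc5, Stmn1, Hmgb2, Cenpa and Smc4, called the 7 division genes below) they held. Most cells held few. In spleen 148 cells had none, 182 had 1, 41 had 2 and 4 had 3. In VAT library 2 the numbers were 243, 74, 12 and 1. In VAT library 3 they were 209, 91, 11 and 2, and 1 cell had 4 of the 7. Smc4 alone was found in 49.1% of spleen cells and in 10.6% and 10.5% of VAT cells, so it added to the count more often in spleen.

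In all, 8 of 1019 cells (0.785%) had a UMI of 3 or more of the 7 genes. They were 4 of 375 spleen cells (1.07%, 0.291 to 2.71), 1 of 330 in VAT library 2 (0.303%, 0.00767 to 1.68) and 3 of 314 in VAT library 3 (0.955%, 0.197 to 2.77). The intervals overlap, which is not a test, and with a count this low neither a difference between tissues nor its absence can be read from them. Depth moved with the result: 7 of the 8 cells lay above the median UMIs of their library, and after thinning to 800 UMIs 2, 0 and 1 cells remained in the 3 libraries. Its part in the result was not tested. All 8 had a Hmgb2 UMI and 5 had a Smc4 UMI, whereas 3 had Mki67, 1 Top2a and 1 Birc5. The 5 cells with Smc4 each held 3 of the 7 genes and reached that number only by counting Smc4. A Foxp3 UMI was present in 5 of the 8.

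Only 1 cell of the 1019 had a UMI of more than 1 of Mki67, Top2a and Birc5: cell 114 of VAT library 3, with 3237 UMIs. It held 1 UMI of Mki67, 3 of Birc5, 3 of Hmgb2, 1 of Cenpa, 3 of H2afz and 1 of Tuba1b. Of 46 further genes of G2 phase and mitosis it had 10 UMIs over 6 genes, among them Ccnb2 (cyclin B2), Ube2c and Pttg1 (which act when sister chromosomes separate) and 4 UMIs of Cks1b. Of 36 genes of S phase and DNA replication it had 1 UMI. It also had 1 UMI of Foxp3, 1 of Il2ra (CD25) and 5 of Ikzf2, a Treg cell factor, together with 2 UMIs of Cst3 from the myeloid list, which made up most of that list in all libraries. No doublet caller was run, and whether 2 cells shared this droplet was not tested.

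**Figure D2:**
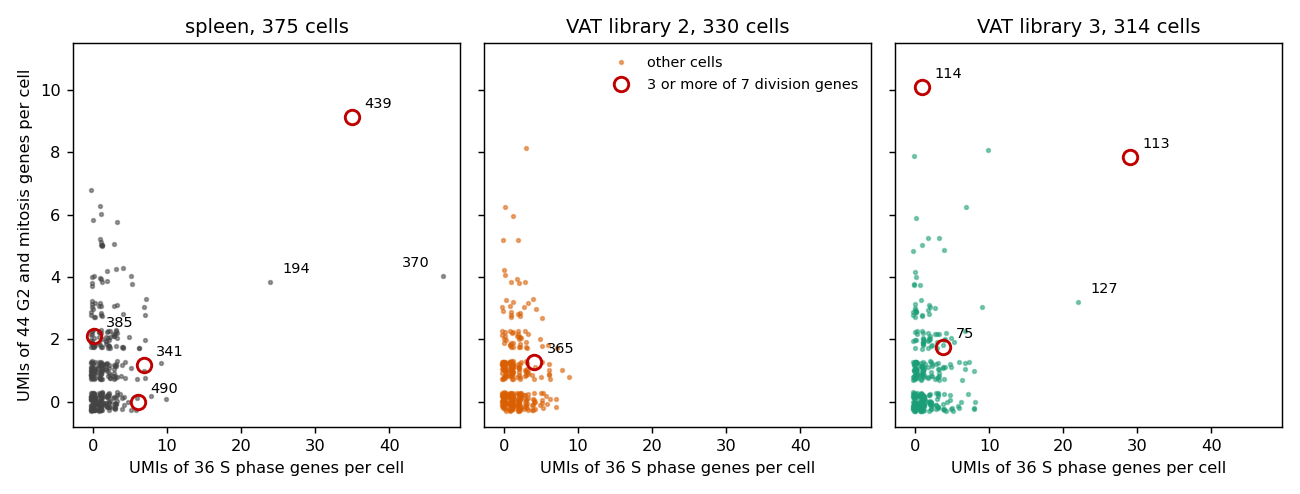
UMIs per cell of the 36 S phase genes (x axis) and of the 44 genes of G2 phase and mitosis that are not tubulins (y axis), 1 panel per library; points are single cells, spread slightly at random so that they do not overlap. Red rings mark the 8 cells with 3 or more of the 7 division genes, and numbers name the cells described in the text. In each panel nearly all cells crowd at or below 10 UMIs of either list, with cells 194, 370 and 439 of spleen and 113 and 127 of VAT library 3 far to the right and cell 114 at the top.

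The S phase list, which holds no member, set a few cells apart by its raw UMIs. Its median was 1 UMI per cell in every library, and 5 cells had between 22 and 47 UMIs of it while every other cell had 10 or fewer. The limit of 20 UMIs that marks these 5 was set after the values were seen. They were 3 of 375 spleen cells (0.800%, 0.165 to 2.32), 0 of 330 in VAT library 2 (3 counts, the most that a count of 0 allows, would be 0.909%) and 2 of 314 in VAT library 3 (0.637%, 0.0772 to 2.28). They were among the deeper cells, at 2253 to 4491 UMIs. Set against depth the gap was not clean. Cell 127 of VAT library 3, 1 of the 5, had 49.0 S phase UMIs per 10000, and spleen cell 341, outside the 5, had 51.8.

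Spleen cell 370 had 47 UMIs over 17 S phase genes, including 13 of Pcna, the clamp that holds DNA polymerase, and UMIs of the 6 helicase genes Mcm2 to Mcm7. Spleen cell 439 had 35 over 15 genes, led by 7 of Rrm2, 6 of Pcna and 5 of Rrm1; Rrm1 and Rrm2 together form the enzyme that supplies deoxynucleotides. Cell 113 of VAT library 3 had 29 over 15 genes, and spleen cell 194 had 24 over 13. Cell 127 of VAT library 3 had 22 over 8 genes, led by 5 of Mcm7. So the signal in each cell was spread over many replication genes and did not come from 1.

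Members differed in whether these 5 cells carried them. Tubb5 and Tuba1b were found in 5 of 5, against 37.7% and 41.9% of the other cells. Their levels were 22.3 and 27.6 UMIs per 10000 in the 5 cells and 4.43 and 7.50 in the rest. Stmn1 was found in 3 of 5 against 1.28% of the other cells, and these 3 cells held 9 of its 45 UMIs. Hmgb2 was found in 3 of 5 against 14.7%, and Mki67 in 2 of 5 against 0.888%. Top2a, Birc5 and Cenpa were at 0 in all 5. H2afz was in 3 of 5 against 43.3%, with 6.56 UMIs per 10000 against 6.93, about the same level as elsewhere. Smc4 was in 1 of 5, and in none of the 3 from spleen, where 49.5% of the other cells had it.

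Only 2 of the 5 cells, spleen 439 and VAT library 3 cell 113, were also among the 8 chosen by the 7 division genes. The 3 spleen cells of the 5 had a UMI of Cd4 each but 0 of Foxp3 and 0 of Il2ra, which were seen in 34.7% and 30.9% of spleen cells. Both VAT cells had Il2ra, 12 UMIs in cell 113 and 2 in cell 127, and cell 113 had 1 of Foxp3. Cell 127 had 1 UMI of Ikzf2 and 2 of Ctla4, but 0 of Foxp3, Cd4, Cd3d, Cd3e and Cd3g. It also had 3 UMIs of Cst3 from the myeloid list. Whether the spleen cells or cell 127 were Treg cells was not tested, nor whether cell 127 shared its droplet with another cell. FoxP3-negative Tconv cells appear in the title of the series, but for the cells used here a CD25-positive sort is the only one given.

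**Figure D3:**
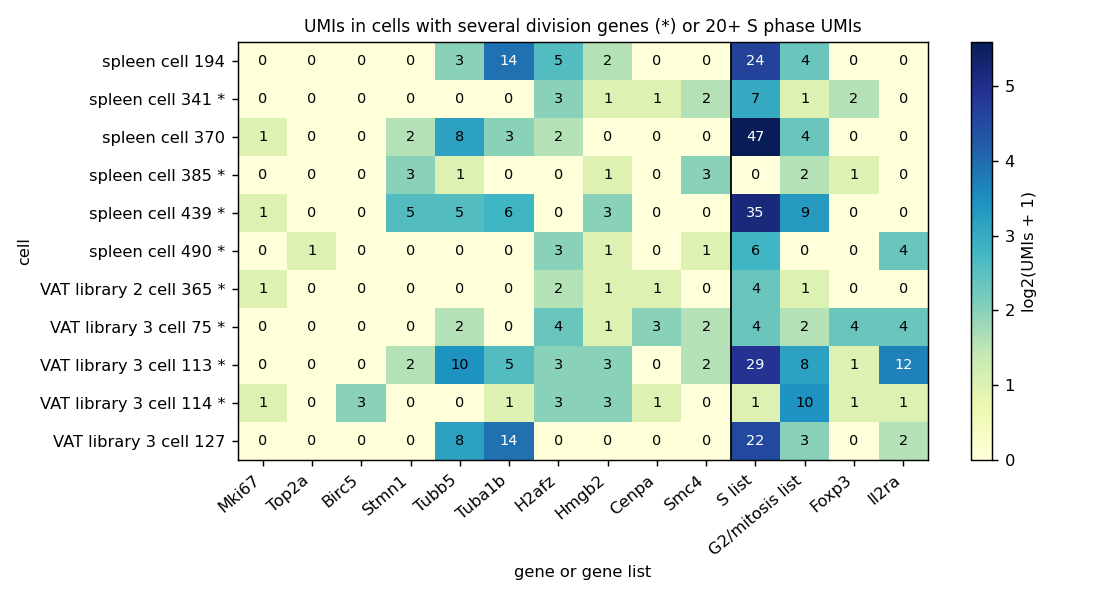
UMIs (numbers in the squares, with colour on a log2 scale) of the 10 genes, of the S phase list, of the G2 and mitosis list without tubulins, and of Foxp3 and Il2ra in 11 cells: the 8 with 3 or more of the 7 division genes (marked *) and the 5 with 20 or more S phase UMIs, 2 cells being both. Cells 370, 439, 194, 113 and 127 hold high S phase counts with Tubb5 and Tuba1b, and cell 114 holds Birc5 with the G2 and mitosis list.

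Taken by library, the 8 cells held more of the S phase list than the other cells of their library in spleen and in VAT library 3. The level was 59.6 against 10.2 UMIs per 10000 in spleen, a ratio of 5.86 (4.27 to 7.87), and 36.7 against 9.51 in VAT library 3, a ratio of 3.86 (2.65 to 5.47). In the single cell of VAT library 2 it was 12.3 against 9.66 (ratio 1.27, 0.346 to 3.28). In each case most of it was 1 cell: cell 439 gave 35 of the 48 UMIs in spleen and cell 113 gave 29 of the 34 in VAT library 3. The intervals take UMIs as independent and so are too narrow here. For the 46 genes of G2 phase and mitosis the ratios were 1.79 (0.947 to 3.09), 0.669 (0.0808 to 2.43) and 2.64 (1.71 to 3.90). Spleen cells 341, 385 and 490, VAT library 2 cell 365 and VAT library 3 cell 75 reached 3 genes with 0 to 7 UMIs of either list. Set against their depth these counts were not all low: cell 341, with 7 S phase UMIs of 1352, 6 of them Pcna, had 51.8 per 10000, and cell 490 had 23.4, whereas cells 365 and 75 had 12.3 and 12.5 and cell 385 had 0.

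Other genes were ranked by their CPM in the 8 cells over that in all other cells, among 946 genes that had 20 or more UMIs and were seen in 3 or more of the 8. That filter favours genes high in the 8 cells and drops genes carried by only 1 or 2 of them, so the ranking is a description. It was led by Eif4ebp2 (17.9-fold, 6 UMIs in 3 cells), Heatr3 (14.7-fold, 6 UMIs) and Ppid (13.9-fold, 14 UMIs). Each of the top 10 rests on 3 or 4 cells.

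Among pairs of members, Smc4 in spleen was found at similar rates with and without the others that were common enough to compare. In spleen Smc4 was found in 47.2% of cells with Hmgb2 and 49.4% of those without. The shares were 48.0% and 49.1% for Cenpa and 48.8% and 49.3% for H2afz. Gaps were wider and of opposite sign for the tubulins, at 52.4% and 46.9% for Tubb5 and 46.4% and 50.2% for Tuba1b. Spleen cells with and without Smc4 had 9.08 and 12.7 UMIs per 10000 of the S phase list and 6.85 and 7.55 of the G2 and mitosis list without tubulins. So Smc4 in spleen was spread over cells with no higher level of other division genes. The few cells with Mki67 gave no common pattern: of the 3 in spleen 2 had Stmn1, seen in 1.08% of the rest, but 0 had Smc4, seen in 49.5% of the rest. Of the 6 in VAT library 3, 5 had Hmgb2, seen in 16.6% of the rest, and 0 had Stmn1. No cell had both Mki67 and Top2a. Hmgb2 was in 17.1% and 22.7% of VAT cells with H2afz and in 9.55% and 14.5% of those without, against 14.8% and 13.6% in spleen. This is 1 of many pairs looked at and rests on 26 and 29 VAT cells with both. With Tuba1b in place of H2afz the VAT shares were 12.7% and 16.1% with it and 13.3% and 19.5% without. For Tubb5 they were 12.2% and 18.8% with it and 13.5% and 17.3% without. Depth per cell is shared by any such pair, and its part was not tested.

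The genes around Smc4 showed the same direction. Ift80, a gene of cilium transport that starts 168 bases away on the other strand, had 63 UMIs in the spleen cells, against 2 and 1 in the VAT libraries (110 against 3.60 and 1.82 CPM), which are spleen to VAT ratios of 30.5 (8.11 to 258) and 60.3 (10.4 to 2418). Trim59, a ubiquitin ligase gene whose end lies 665 bases beyond that of Smc4, had 42 against 8 and 6 UMIs, ratios of 5.09 (2.36 to 12.6) and 6.70 (2.83 to 19.3). Further out, 1110032F04Rik, 132575 bases before Smc4, had 19 UMIs in spleen and none in either VAT library. With 3 counts per library as the floor this is 6.14-fold and 6.06-fold higher. The exact intervals of the 2 ratios start lower, at 4.52 and 4.46. On the other side Kpna4, 32526 bases away, had 21, 29 and 24 UMIs and was not lower in VAT. Ift80 and Trim59 passed the 2-fold rule as lower. These neighbours were looked at after the value of Smc4 was seen, and reads that run over from Smc4 into its neighbours were not tested. The microRNA genes Mir15b and Mir16-2 inside Smc4 had 0 UMIs, in a method that captures polyadenylated RNA.

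**Figure D4:**
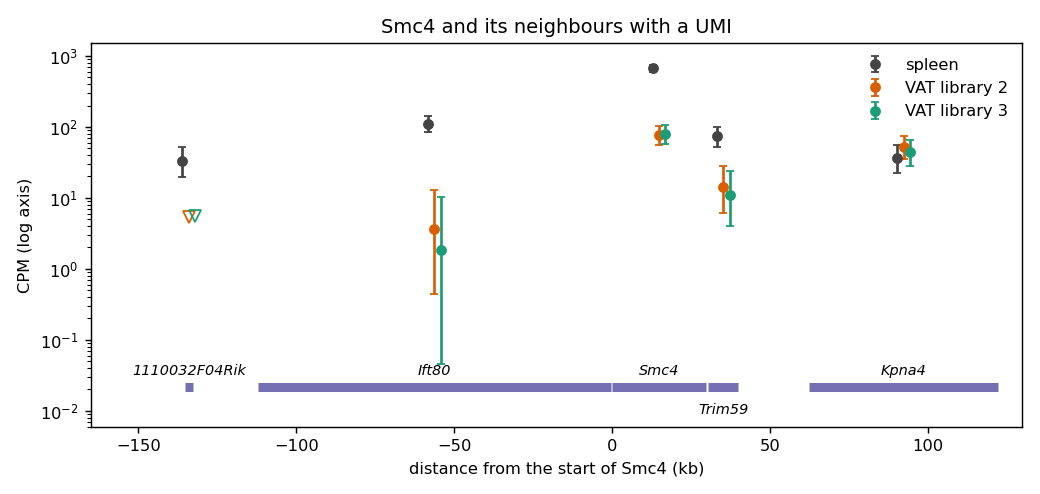
Level in CPM (log axis) of Smc4 and the genes with a UMI within 200000 bases, at their midpoints in kilobases from the start of Smc4; purple bars show the genes' extents. Bars on points are 95% exact Poisson intervals and open triangles the limit of 3 counts where a library had none. Spleen lies above both VAT libraries for 1110032F04Rik, Ift80, Smc4 and Trim59, and not for Kpna4.

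The difference in Smc4 was about as large among cells with a Foxp3 UMI and among cells free of other cells' markers. Among cells with a Foxp3 UMI it was at 572 CPM in spleen and at 66.3 and 76.7 in VAT. In the 179 spleen cells with no UMI of any marker of another cell type it was at 750 CPM, against 80.9 and 84.8 in the 214 and 190 such cells of the VAT libraries. Of the condensin and cohesin genes, which hold and fold chromosomes, 9 had 50 or more UMIs. Smc4 was lower, beside 4.40% of all genes, and the other 8 passed the rule in neither direction. Only Ncaph2 among these 8 is a condensin gene. The remaining condensin genes had too few UMIs for the rule. Smc2 had 5, 7 and 6 UMIs in spleen, VAT library 2 and VAT library 3, and Ncapd2 had 11, 8 and 5. Smc1a, a cohesin arm, was at 160 CPM in spleen and 95.3 and 85.6 in VAT, Smc3, its partner, at 132 against 119 and 82.0, and Rad21, the ring's clasp, at 120 against 122 and 135. The list's median log2 ratio was -0.16 and -0.17.

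Genes of S phase and DNA replication gave no common direction. Of 11 with 50 or more UMIs, 1 was higher in VAT, 1 lower and 9 neither. Over all genes 10.3% were higher and 4.40% lower. The median log2 ratio of the list was 0.19 and 0.06. Pcna was at 216 CPM in spleen and 245 and 215 in VAT, and Mcm6, a helicase subunit, at 99.4 against 64.7 and 60.1. Mcm7, another subunit, was the lower one, at 66.2 against 18.0 and 18.2 CPM; Dnmt1, which copies DNA methylation, was the higher one, at 15.7 against 61.1 and 45.6. Dut, which removes dUTP, was at 52.3 against 61.1 and 78.4, and Usp1, a deubiquitinase of DNA repair, at 69.7 against 34.2 and 82.0.

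Of 7 genes of G2 phase and mitosis with 50 or more UMIs, 1 was higher, beside 10.3% of all genes, and 6 were neither. The higher one was the tubulin Tuba1c, at 101 CPM in spleen and 237 and 341 in VAT, a gene also used by resting cells. Cenpf, a kinetochore gene, was at 195 against 138 and 137 CPM, and Pttg1, securin, at 94.1 against 86.3 and 104. Among tubulins 3 of 8 were higher, beside 10.3% of all genes. They were Tuba1c, Tuba1a (127 against 430 and 481 CPM) and Tuba4a (61.0 against 164 and 162). Tubb4b, listed with mitosis for its use in the spindle, was at 90.7 against 171 and 171, and Tbca, a tubulin folding factor, at 187 against 239 and 273. The median log2 ratio of the tubulin list was 0.79 and 0.75.

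Histone variants and HMG proteins showed 1 of 12 higher, 1 lower and 10 neither, beside 10.3% higher and 4.40% lower over all genes. H3f3a and H3f3b, which encode the replication-independent histone H3.3, were at 720 against 888 and 778 CPM and at 661 against 1029 and 1035. Hmgb1, the relative of Hmgb2, was at 253 against 372 and 323. H1f0, a linker histone typical of resting cells, was the higher one, at 15.7 against 62.9 and 60.1. Hmgn1, a nucleosome-binding protein, was the lower one, with 60 UMIs in the spleen library and 2 in each of VAT, a ratio of VAT to spleen of 0.0344 (0.00407 to 0.130) and 0.0348 (0.00412 to 0.131).

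Among the 8 lists examined, that of cell cycle inhibitors and quiescence genes had the highest median ratio of VAT to spleen. All lists were chosen with earlier results of these data known, so this rank is a description. Of 12 cell cycle inhibitors and quiescence genes with 50 or more UMIs, 7 were higher in VAT, 2 lower and 3 neither, beside 10.3% higher and 4.40% lower over all genes; the median log2 ratio was 1.72 and 1.32. Cdkn1a, which encodes the kinase inhibitor p21, had 3 UMIs in the spleen library but 310 and 283 in those of VAT, which are ratios of 107 (36.1 to 520) and 98.6 (33.4 to 481). Gadd45b, a stress response gene, was at 75.0 CPM in 19 spleen cells and at 2386 and 2573 CPM in 293 and 269 VAT cells. Btg2, an antiproliferative gene, was at 127 against 606 and 654, and its relative Tob2 at 61.0 against 378 and 288. Rbl2, a retinoblastoma family gene, was at 48.8 against 160 and 148, Cdkn2d, the inhibitor p19, at 55.8 against 189 and 117, and Ccng2, an unconventional cyclin, at 22.7 against 88.1 and 72.9. The lower pair, Foxo1 and Foxp1, are transcription factors of resting T cells: Foxo1 was at 436 against 146 and 94.8 and Foxp1 at 317 against 144 and 157. Btg1 was at 934 against 976 and 918. Several of these genes are also known to be induced by stress and by enzymatic digestion of tissue, and dissociation differed between the tissues, so the 2 cannot be told apart.

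Of 4 genes of G1 phase, before DNA is copied, with 50 or more UMIs, 1 was higher in VAT and 3 were neither. Over all genes 10.3% were higher. Myc, a transcription factor gene that is also an early response gene, was at 38.4 CPM in spleen and 138 and 118 in VAT. Ccnd2, cyclin D2, was at 647 against 1243 and 1061, Ccnd3 at 92.4 against 135 and 108, and Cdk4, their kinase, at 87.2 against 73.7 and 69.2. Among Treg identity genes 2 of 8 were higher and 1 lower, beside 10.3% and 4.40% of all genes. The higher ones were Il2ra, whose product CD25 was part of the sort gate (453 against 1104 and 1011 CPM), and Ctla4 (131 against 631 and 561). The lower one was Cd3d (493 against 237 and 231). Ikzf2 was at 615 against 887 and 703 and Cd4 at 697 against 673 and 425.

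**Figure D5:**
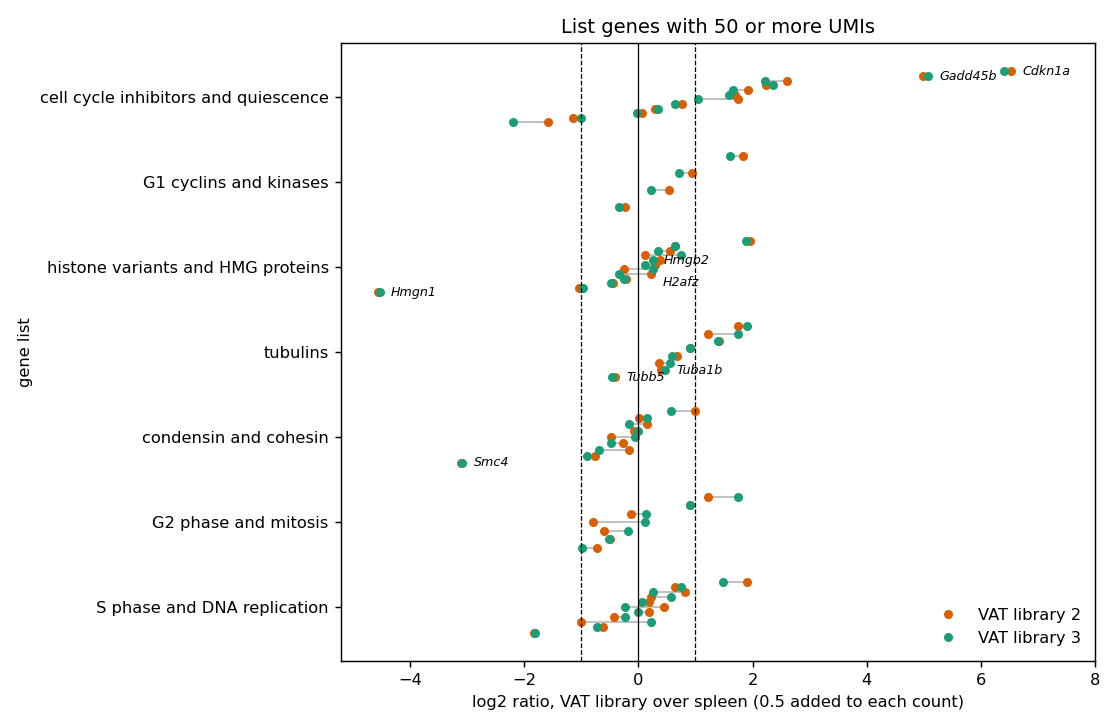
Log2 ratio of each VAT library to spleen for the genes of 7 lists with 50 or more UMIs; the 2 points of a gene, joined by a grey line, are VAT libraries 2 and 3, and dashed lines mark 2-fold. Smc4 and Hmgn1 lie far to the left of their lists, Cdkn1a and Gadd45b far to the right, and the genes of S phase and of G2 phase and mitosis lie mostly between the dashed lines.

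Ribosomal protein genes took 30.6% of UMIs in spleen and 18.0% and 20.0% in VAT. Left out of the totals, all ratios fell by 0.22 on the log2 scale in the median and the calls turned from 478 higher and 204 lower (70.1% higher) to 379 and 341 (52.6% higher). Smc4 was still called lower, and the S phase list still had Dnmt1 higher and Mcm7 lower, but Tuba1c, Cdkn2d and Il2ra were no longer called and Hmga1 became lower. The medians of the S phase list then turned to -0.05 and -0.14 and those of the histone and HMG list to -0.07 and -0.03. With each cell thinned to 800 UMIs, Rbl2 was no longer called higher, which left 6 of the 12 inhibitor and quiescence genes, and Cd3d was no longer called lower.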

How the data were processed

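The authors deposited 1 table of UMI counts per gene and cell; per the submitters' processing notes TopHat2, SAMtools and the mm10 genome were used, with no versions, and the counting rule is not given in the sources used here. Whole-number counts were used as deposited, with no further filter on cells, no doublet caller and no clustering; columns were assigned to libraries by name, and 0 columns were left unassigned. Counts were summed per library of 375, 330 and 314 cells (Python 3.11.15, numpy 2.4.6, pandas 2.3.3, scipy 1.17.1). Levels carry exact Poisson intervals, shares exact Clopper-Pearson intervals and ratios exact conditional binomial intervals, all at 95%. Those of levels and ratios take UMIs as independent, also where several came from 1 cell. Log2 ratios added 0.5 to each count. Shares were repeated with each cell thinned to 800 UMIs; no cell was shallower. No test between tissues was made, since 1 library is from spleen. No cell type lacking these genes was at hand to gauge free RNA in droplets.

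The 10 genes and all lists were chosen with earlier results of these data known. Named besides the 10 were the 4 genes with most UMIs of each list, list genes past the 2-fold rule, and the 10 genes most enriched in the cells with several division genes (20 or more UMIs in all and UMIs in 3 or more of those cells). Gene positions are from GENCODE M21 (GRCm38, that is mm10), promoter sequences from RefSeq. The fold rule and the intervals were tested on simulated data. Alternatives covered totals, depth, cells kept, gene rule and each VAT library.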

Additional observations from a re-analysis of the deposited data

How the results depend on the processing

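Smc4 stayed lower in VAT in all 11 alternatives, at a mean log2 ratio of -3.31 to -2.88 (-3.09 as reported; -3.08 without VAT replicate 2 and -3.10 without VAT replicate 3). The other 9 members were not called; H2afz changed sign between the VAT libraries (-0.33 and 0.22), and Stmn1 ranged from -1.11 to 0.75 and Mki67 from -0.49 to 2.19, on few UMIs. The share of cells with several division genes depends on the number asked for. Asking for 2 or more of the 7 gave 12.0%, 3.94% and 4.46% in spleen, VAT library 2 and VAT library 3. Smc4, 1 of the 7, was by itself in 49.1% of spleen cells and in 10.6% and 10.5% of VAT cells. These shares therefore cannot be read as shares of dividing cells, and the part of Smc4 in them was not tested. Asking for 4 or more, or for 2 or more of Mki67, Top2a and Birc5, gave 0 in spleen and in VAT library 2. In VAT library 2 it was also 0 for 5 or more of all 10, at 800 UMIs per cell, without the top 5% of cells by UMIs, among cells with a Foxp3 UMI, and without cells with a marker UMI of B cells, myeloid cells or CD8 and NK cells. Among cells with a Foxp3 UMI it was 3.06% in VAT library 3. The S phase ratio in spleen was 2.11 for 2 or more of 7, 9.29 at 800 UMIs per cell, 2.44 without the top 5% of cells and 2.54 among Foxp3 cells, since the last 2 leave out cell 439. In VAT library 3 it was 1.99 for 2 or more of 7, 0.309 for 4 or more and for 2 or more of Mki67, Top2a and Birc5 (cell 114 alone), 2.53 for 5 or more of all 10, 0 at 800 UMIs per cell, and 11.1 both without the top 5% of cells and without cells with other markers (cell 113 alone). The G2 and mitosis ratio was 3.43 in spleen at 800 UMIs per cell; in VAT library 3 it was 1.52 for 2 or more of 7, 4.57 without the top 5% of cells and 4.51 without cells with other markers. Where an alternative left no such cell there is no ratio. Leaving the tubulins out of that list, leaving out cells with shared barcodes, cells with any other marker or the 5 cells with high S phase counts were chosen after seeing the data. Genes past the 2-fold rule numbered 783 higher and 479 lower at 20 or more UMIs, 298 and 85 at 100 or more, and 341 lower with ribosomal protein genes left out, against 478 and 204. No paired analysis was possible because the groups share only 1 replicate number. Depth limits the rest: at 1423 to 1611 UMIs per cell in the median, a gene such as Mki67 can be missed in a cell that expresses it.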
